A study of Homo sapiens with 15 samples.

Results

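MicroRNA host transcripts are RNAs whose exons or introns contain the hairpins from which microRNAs are cut. The 8 host transcripts described here, MIR7-3HG, MIR223HG, MIR17HG, MIR22HG, MIR155HG, MIR210HG, MIR100HG and MIR99AHG, were found by symbol among the 60649 genes of the count table, which held 84 symbols of the form MIR…HG. The set was selected on measured values, the rise of MIR7-3HG from 0 counts and the low-dose peak of MIR223HG, so the levels of those genes are described without a test. The other 6 are hosts of well-known microRNAs.

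The samples were K562 cells, an established line from the blast phase of chronic myeloid leukaemia with erythroid features. Cells were left untreated or exposed for 24 h to martinostat, an inhibitor of histone deacetylases (HDACs), at 0.15, 0.25, 0.5 or 1 µM, with 3 libraries in each of the 5 groups. The labels call the libraries biological replicates without naming separate cultures, so the p-values measure the spread between these libraries. All values come from poly(A)-selected RNA counted per gene, which means that host RNAs were measured and mature microRNAs were not.

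A primary microRNA transcript is made by RNA polymerase II, the hairpin is excised in the nucleus by DROSHA with DGCR8, exported by XPO5 with RAN-GTP and trimmed by DICER1, and 1 arm is loaded into an Argonaute protein. The seed, bases 2 to 8 of the mature arm, pairs with target mRNAs. In blood cells miR-223 is known as a myeloid microRNA and miR-155 as a lymphoid and inflammatory one, the miR-17 to miR-92a cluster is a MYC target that promotes proliferation, miR-210 responds to hypoxia, and miR-7 is best known from pituitary, islet and neuronal cells.

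Within the 8 hosts the annotation (GENCODE, hg38) places 17 hairpins on the strand of the host, and RefSeq (GRCh38.p14) gives 33 mature entries for them, of which 32 differ in sequence. The arms below are shown because the results turn on their hosts. Letters run 5′ to 3′ and capitals mark the seed.
miR-7-5p: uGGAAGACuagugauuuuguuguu
miR-223-3p: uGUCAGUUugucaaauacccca
miR-17-5p: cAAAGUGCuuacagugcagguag
miR-20a-5p: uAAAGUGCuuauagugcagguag
miR-18a-5p: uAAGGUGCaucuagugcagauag
miR-19a-3p: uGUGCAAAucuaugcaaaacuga
miR-19b-3p: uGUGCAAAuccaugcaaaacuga
miR-92a-3p: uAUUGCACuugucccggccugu
miR-210-3p: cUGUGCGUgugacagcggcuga
miR-22-3p: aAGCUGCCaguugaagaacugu

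The mature miR-7-5p shown lies at chr19:4770700-4770723, miR-223-3p at chrX:66018937-66018958 and miR-17-5p at chr13:91350618-91350640. In the MIR17HG cluster miR-17-5p and miR-20a-5p share the seed AAAGUGC and miR-19a-3p and miR-19b-3p share GUGCAAA, while miR-18a-5p has AAGGUGC. Seeds were also shared across hosts. MIR100HG and MIR99AHG each carry a miR-125b hairpin with the same 5p sequence, their miR-100-5p and miR-99a-5p share ACCCGUA, and their let-7a-5p and let-7c-5p share GAGGUAG.

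Library totals lay between 23755510 and 32805574 counts. TMM scaling factors were 0.784 to 0.828 in untreated and 0.950 to 1.28 in treated libraries, and levels are given as CPM, counts relative to the scaled library size. Replicate 3 at 0.25 µM and replicate 3 at 0.5 µM stood apart from the other libraries of their groups. Of tested genes whose group mean reached 1 CPM, 5.81% and 11.4% differed over 2-fold between replicate 3 and the mean of replicates 1 and 2, against 0.174% to 0.758% in the other groups, and the results on MIR223HG, MIR17HG and MIR22HG that move with these libraries are given with and without them. The 8 markers listed for K562 cells summed to 2606 to 2832 CPM in untreated and 752 to 903 CPM at 1 µM, where 6 were lower and 1 higher (27.5% and 38.8% of all tested genes). The higher one was HBE1, the embryonic globin gene, at 0.170 CPM in untreated and 0.491 CPM at 1 µM (adjusted p = 0.049). From so low an untreated level HBE1 could hardly have been called lower, and its call lies at the threshold. In bulk RNA, fewer cells of a type and less RNA per cell cannot be told apart.

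MIR7-3HG (ENSG00000176840, chromosome 19, 4769031 to 4785077, plus strand) went from no counts in untreated cells to at least 343 CPM in each library at 0.5 µM. The untreated libraries held 0, 0 and 0 counts. At 0.15 µM the 3 libraries held 8, 6 and 12 counts (0.281, 0.212 and 0.413 CPM), and at 0.25 µM they held 279, 300 and 414 counts (9.46, 10.7 and 10.4 CPM). At 0.5 µM the levels were 379, 343 and 478 CPM, and at 1 µM they were 373, 377 and 282 CPM. No library of a dose overlapped with one of the dose below it up to 0.5 µM, while the 0.5 and 1 µM groups overlapped.

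Against a floor of 3 counts over the untreated group (0.0395 CPM), mean MIR7-3HG levels were at least 7.64-fold higher at 0.15 µM, 258-fold at 0.25 µM, 10118-fold at 0.5 µM and 8706-fold at 1 µM. The group means rose 33.7-fold from 0.15 to 0.25 µM and a further 39.3-fold from 0.25 to 0.5 µM (35.8-fold without replicate 3 of both groups). At 0.5 µM the mean reached 399.9 ± 69.8 CPM (SD, n = 3), and at 1 µM it was 344 ± 53.8 CPM. Of the 29282 genes with 0 counts in all untreated libraries, MIR7-3HG had the highest mean at 0.5 and at 1 µM and was the 1 gene to reach 100 CPM at either dose. Among all genes of the table it ranked 300th by CPM at 0.5 µM and 368th at 1 µM, whereas at 0.15 µM it ranked 20878th.

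The hairpin gene MIR7-3 lies in an intron of MIR7-3HG and was counted apart from its host. It had 0 counts in the untreated and 0.15 µM libraries, 3 over the 0.25 µM group, 80 over the 0.5 µM group and 61 over the 1 µM group. Per library this was 17, 8 and 55 counts at 0.5 µM and 27, 18 and 16 at 1 µM, or 0.0976% to 0.313% of the host's counts. Fragments over the intronic hairpin thus appeared at the doses at which the exons of the host were abundant, at a small share of the host.

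Genes that flank MIR7-3HG did not follow it. FEM1A, 6657 bases beyond its end, had an untreated level of 9.10 ± 0.588 CPM and 3.48 ± 0.676 CPM at 1 µM, and was lower at 0.25, 0.5 and 1 µM (log2 fold change −1.39 at 1 µM, adjusted p = 0.00088). DPP9, a dipeptidyl peptidase gene 44358 bases on the other side, fell at all 4 doses (−1.56 at 1 µM, adjusted p = 3.48e-08). Unless another fit is named, adjusted p-values are from the quasi-likelihood test of edgeR, adjusted by Benjamini-Hochberg over the 23711 genes tested. The same mature miR-7-5p is also encoded by MIR7-1 inside HNRNPK, an RNA-binding protein gene whose mRNA fell from an untreated 912 ± 78.9 CPM to 219 ± 17.8 CPM at 1 µM (log2 fold change −2.06 ± 0.15 (SE), adjusted p = 8.25e-10).

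Markers of neuroendocrine cells, in which miR-7 is known to be abundant, were also higher in treated libraries, but with another dose course. The 7 listed markers summed to 10.2 to 14.7 CPM in untreated libraries and 69.9 to 91.4 CPM at 0.15 µM. The sums were 62.1 to 116 CPM at 0.25 µM, 97.4 to 170 at 0.5 µM and 113 to 151 at 1 µM. The sum was thus already raised at 0.15 µM, where the mean of MIR7-3HG was 0.302 CPM. Of the 5 tested, 4 were higher at 0.15 µM (31.9% of all tested genes) and all 5 at 1 µM (38.8%). SYP, a synaptic vesicle gene, made up most of the sum, at 10.5 CPM in untreated and 84.1 CPM at 1 µM. The other listed markers shared the small rest of the untreated sum, and 1 of the 7 had 0 counts there. Tested markers near 0 in untreated libraries could hardly have been called lower. The defining factors INSM1 and NEUROD1 stayed at group means of 0.359 CPM or lower and were not tested. The part of such cells or genes in the MIR7-3HG level was not tested.

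**Figure D1:**
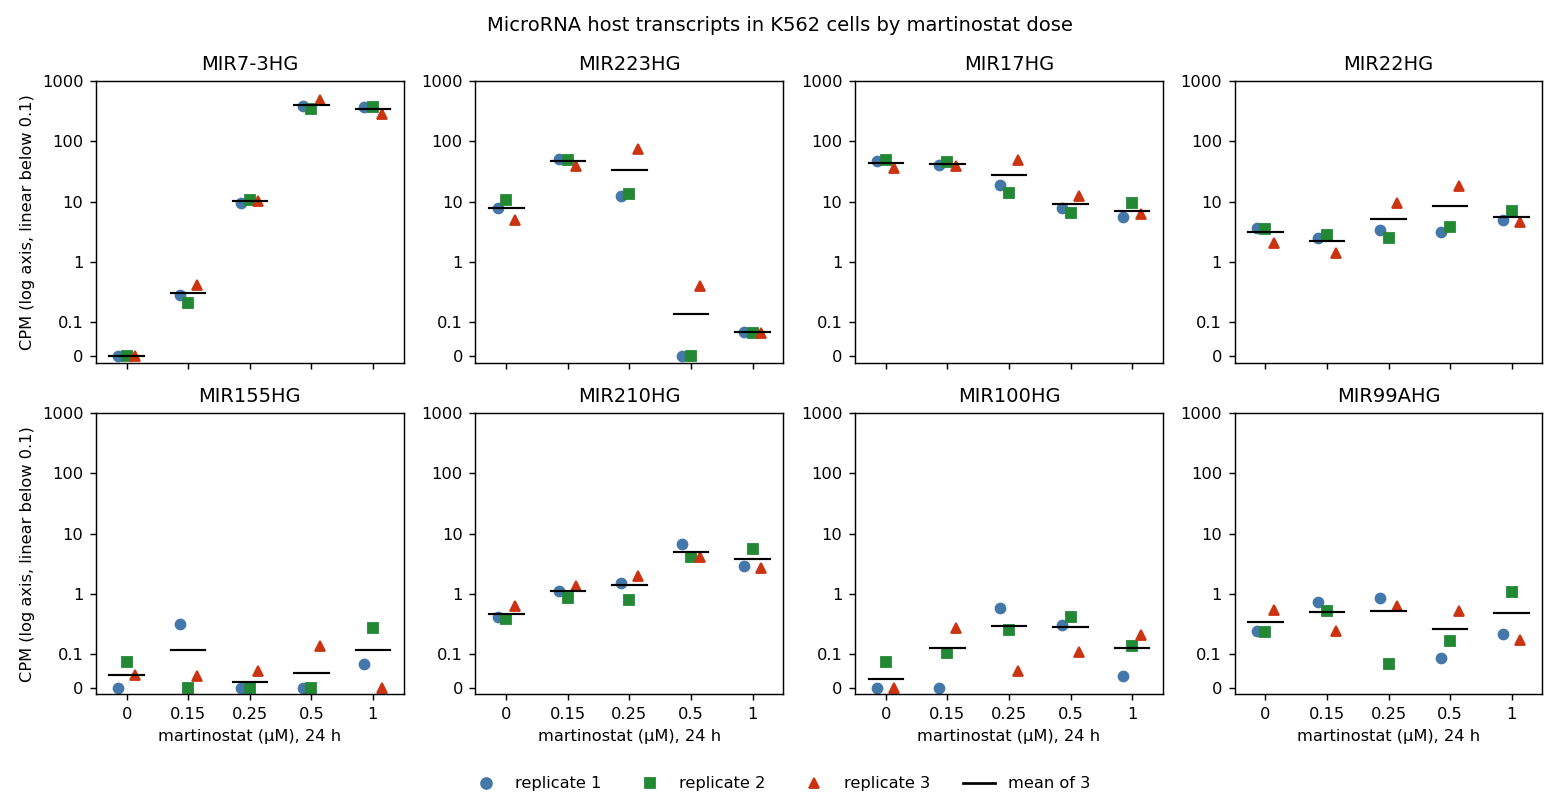
CPM of the 8 microRNA host transcripts (log axis, linear below 0.1 CPM) against martinostat dose in µM, with 1 point per library (symbols give the replicate) and a bar at the mean of 3. MIR7-3HG climbed from 0 to a mean of 344 CPM at 1 µM, MIR223HG went from 46.8 CPM at 0.15 µM to 0.0699 CPM at 1 µM, MIR210HG rose and MIR17HG fell, and MIR155HG, MIR100HG and MIR99AHG stayed near or below 1 CPM.

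MIR223HG (ENSG00000274536, chromosome X, 66015414 to 66020426, plus strand) rose at the lowest dose and was almost gone at the higher doses. The untreated libraries had 7.81, 10.5 and 4.93 CPM, and the 0.15 µM libraries had 52.0, 50.03 and 38.4 CPM. At 0.25 µM the levels were 12.6, 13.4 and 73.9 CPM. At 0.5 µM the counts were 0, 0 and 15, and at 1 µM each library held 2. Untreated, low-dose and high-dose libraries did not overlap, and the 0.25 µM group spanned both sides of the 0.15 µM group.

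The mean of MIR223HG was 6.04-fold higher at 0.15 µM than in untreated cells (46.8 ± 7.35 against 7.75 ± 2.79 CPM). At 0.25 µM the mean was 33.3 CPM with all libraries and 13.0 CPM without replicate 3, which is 4.30-fold and 1.68-fold over untreated cells. At 1 µM the mean was 111-fold lower than untreated, with 6 counts over the group, and at 0.5 µM all 15 counts came from replicate 3. Both libraries in which MIR223HG was highest for their dose at 0.25 and 0.5 µM were thus the ones that stood apart. The hairpin MIR223 lies in an exon of this host and had 0 counts in all libraries. Fragments that fall on a hairpin and a host exon at once may be assigned to neither, so this 0 carries no information on the hairpin, and the same holds for the other exonic hairpins.

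The nearest tested genes on both sides of MIR223HG also had their lowest group means at 0.5 and 1 µM, and neither was called between these doses. VSIG4, a macrophage complement receptor gene 1312 bases beyond its end, had 0.368 ± 0.224 CPM in untreated cells, 1.41 ± 0.607 at 0.15 µM and 0.0706 ± 0.0710 at 1 µM, and was higher at 0.15 µM (log2 fold change 1.93, adjusted p = 0.0246) and lower at 1 µM (−2.32, adjusted p = 0.026). On the other side ENSG00000237311, a long noncoding RNA gene at 13978 bases, was lower at all 4 doses, from an untreated 15.4 CPM to 7.51 at 0.15 µM and 0.0824 CPM at 1 µM. That gene did not share the rise at 0.15 µM.

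Myeloid markers were higher at 0.15 µM, as MIR223HG was, and several were still higher at 1 µM, where MIR223HG was almost absent. The 8 listed myeloid markers summed to 19.6 to 20.9 CPM in untreated libraries, 69.9 to 76.6 CPM at 0.15 µM, 45.1 to 68.1 CPM at 0.25 µM and 20.1 to 27.9 CPM at 1 µM. Of the 7 tested, 6 were higher at 0.15 µM, where 31.9% of all tested genes were higher. At 1 µM 5 were higher and 1 lower, against 38.8% and 27.5% of all tested genes. MPO and S100A8 are among those counted and, with 0 counts in untreated libraries, could not have come out lower. LYZ, the lysozyme gene, went from 7.81 CPM to 21.4 CPM at 0.15 µM and 1.76 CPM at 1 µM, and CSF3R, the G-CSF receptor gene, rose from 3.88 to 17.6 CPM at 0.15 µM and stood at 5.15 CPM at 1 µM. ITGAM, an integrin of myeloid cells, had 8.31 ± 1.40 CPM in untreated cells, 33.2 ± 2.40 at 0.15 µM and 15.3 ± 3.26 at 1 µM, and was higher at both doses (adjusted p = 0.000528 at 1 µM). CD14, FCGR3B, MPO and S100A8, each with a mean under 1 CPM in every group, were the others higher at 1 µM. SPI1, the myeloid transcription factor PU.1, went from 32.7 ± 4.58 CPM to 127 ± 4.93 at 0.15 µM and 12.3 ± 1.65 at 1 µM, and was higher at 0.15 µM (log2 fold change 1.96, adjusted p = 1.5e-08) and lower at 1 µM (−1.41 ± 0.17 (SE), adjusted p = 4.51e-07). The defining granule genes MPO, ELANE and S100A8 had 0 counts in untreated libraries and means of 0.753 CPM or lower in treated groups, and the part of myeloid cells in the MIR223HG level was not tested.

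**Figure D2:**
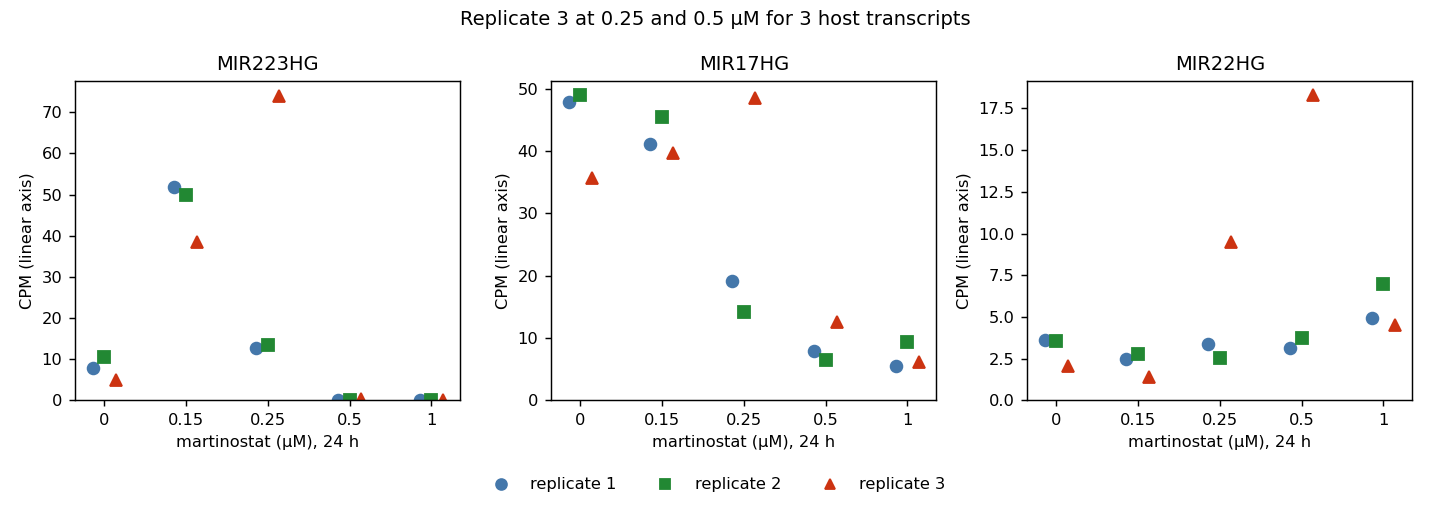
CPM (linear axes from 0) of MIR223HG, MIR17HG and MIR22HG in each library against martinostat dose in µM, with symbols for replicates 1 to 3. Replicate 3 lay above replicates 1 and 2 for all 3 genes at both doses, at 73.9, 48.6 and 9.49 CPM at 0.25 µM and 0.408, 12.6 and 18.3 CPM at 0.5 µM.

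Of the other 6 hosts, MIR17HG, MIR22HG, MIR210HG and MIR99AHG passed the filter on low counts and were tested, and MIR155HG and MIR100HG, with 30 and 71 counts over all 15 libraries, did not. At 0.15 µM 1 of the 4, MIR210HG, was called higher and 0 lower, where 51.2% of all tested genes were called (31.9% higher, 19.4% lower). At 0.25 µM it was again MIR210HG alone, against 62.3% of all genes (37.4% higher, 24.8% lower). At 0.5 µM 2 of the 4 were called, MIR210HG higher and MIR17HG lower, against 66.9% of all genes (39.4% higher, 27.6% lower), and the same pair was called at 1 µM, against 66.2% (38.8% higher, 27.5% lower). From 0.15 to 0.25 µM 0 of the 4 were called, against 12.3% of all genes (4.96% higher, 7.32% lower), and from 0.25 to 0.5 µM 2 were, against 30.4% (14.4% higher, 16.0% lower). From 0.15 to 1 µM 2 were called, against 44.5% (21.5% higher, 23.1% lower). Between 0.5 and 1 µM the quasi-likelihood test called 0 of all genes, 372 genes had an unadjusted p under 0.05, and DESeq2 called 0. Comparisons against untreated cells share the untreated libraries.

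MIR17HG (ENSG00000215417, chromosome 13, 91347686 to 91397592, plus strand) hosts 6 hairpins in its exons, miR-17, miR-18a, miR-19a, miR-20a, miR-19b-1 and miR-92a-1. It was the most abundant of the 8 in untreated cells, at 47.9, 49.1 and 35.7 CPM. At 0.15 µM the libraries had 41.2, 45.4 and 39.8 CPM, within the range of the untreated libraries. At 0.25 µM the levels were 19.1, 14.2 and 48.6 CPM, so that replicates 1 and 2 lay below all untreated libraries and replicate 3 among them.

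At the higher doses MIR17HG was low in each library, at 7.95, 6.53 and 12.6 CPM at 0.5 µM and 5.54, 9.36 and 6.21 CPM at 1 µM. It fell by 2.28 ± 0.39 on the log2 scale (SE) at 0.5 µM (adjusted p = 0.000138) and by 2.65 ± 0.40 at 1 µM (adjusted p = 4.05e-05), lower than every untreated library in 3 of 3 libraries at both doses. The difference at 0.25 µM was −0.69 ± 0.37 with all libraries (adjusted p = 0.121) and −1.39 without replicate 3 of that group (adjusted p = 0.000286), so the call at that dose rests on this library. Between 0.25 and 0.5 µM the change was −1.59 ± 0.39 (adjusted p = 0.00611). It was −0.84 without replicate 3 of 0.25 µM (adjusted p = 0.0244) and −1.19 without replicate 3 of both doses (adjusted p = 0.000317), lower in each fit. Between 0.15 and 1 µM it was −2.58 ± 0.40 (adjusted p = 0.000114). At 0.15 µM the difference from untreated was −0.07 ± 0.37 (adjusted p = 0.892), and its sign turned with scaling by library totals (0.29), with TMM from genes of at least 10 CPM (0.19) and with a filter of 10 counts in every library (0.10).

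The length behind the deposited FPKM of MIR17HG was 6760 bases, while the annotation used here gives it a span of 49907 bases that ends 1029 bases before GPC5, a glypican gene. GPC5 went the other way, from an untreated mean of 0.0257 CPM to 2.58 ± 0.316 at 0.15 µM and 10.8 ± 0.703 CPM at 1 µM. From so low an untreated level it could hardly have been called lower, so no p-value is given. An unnamed antisense gene covers 20.5% of the exon bases of MIR17HG in this annotation, and the strand setting of the counting is not given in the sources used here.

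MIR210HG (ENSG00000247095, chromosome 11, 565657 to 568457, minus strand) rose with dose. Untreated libraries had 0.409, 0.386 and 0.626 CPM, which rests on 10, 10 and 16 counts. At 0.15 µM the levels were 1.12, 0.847 and 1.38 CPM and at 0.25 µM 1.49, 0.787 and 1.95 CPM. At 0.5 µM they were 6.67, 4.14 and 4.05 CPM and at 1 µM 2.95, 5.63 and 2.65 CPM. Each treated library lay above all untreated ones, and the 0.15 and 0.25 µM groups overlapped, as did the 0.5 and 1 µM groups.

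The log2 fold changes of MIR210HG against untreated cells were 1.23 ± 0.43 (SE) at 0.15 µM (adjusted p = 0.024), 1.58 ± 0.43 at 0.25 µM (adjusted p = 0.00345), 3.37 ± 0.42 at 0.5 µM (adjusted p = 1.03e-06) and 2.97 ± 0.42 at 1 µM (adjusted p = 4.84e-06). The call at 0.15 µM was lost when replicate 1 or 2 of the untreated cells or replicate 3 of that dose was left out, with log2 fold changes of 1.14, 1.10 and 1.05. The step from 0.25 to 0.5 µM was called (1.79 ± 0.37, adjusted p = 0.00106). Its hairpin MIR210 is intronic and had 12 counts in all, 9 of them at 1 µM. The flanking PHRF1, 8013 bases away, was at 175 ± 4.15 CPM in untreated cells, 72.1 ± 8.80 at 0.25 µM and 141 ± 12.0 at 1 µM, lower than untreated at all 4 doses (log2 fold change −1.28 at 0.25 µM and −0.32 at 1 µM, adjusted p = 2.53e-07 and 0.0496). RASSF7, 1632 bases away on the other side, was called against untreated cells at 0.25 µM alone (log2 fold change −1.25, adjusted p = 0.0015) and was higher again from 0.25 to 0.5 µM (1.32, adjusted p = 0.00269).

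MIR22HG (ENSG00000186594, chromosome 17, 1711447 to 1717174, minus strand), whose exon holds the hairpin of miR-22, was not called in any comparison in the TMM-scaled fit of all 15 libraries. In some of the other fits it was called at 0.5 µM, at 1 µM or from 0.15 to 0.25 µM. Untreated libraries had 3.64, 3.55 and 2.07 CPM and 0.15 µM libraries 2.50, 2.79 and 1.41 CPM. At 0.25 µM the levels were 3.39, 2.54 and 9.49 CPM and at 0.5 µM 3.14, 3.77 and 18.3 CPM, so that replicate 3 alone was high. At 1 µM the levels were 4.93, 6.98 and 4.53 CPM, all above the untreated libraries.

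At 0.5 µM the MIR22HG difference was 1.46 ± 0.64 on the log2 scale (SE) with all libraries (adjusted p = 0.0577) and 0.16 without replicate 3 of that dose. With all libraries 5 other scalings, filters or tools called it there, at 1.52 to 1.97 (adjusted p = 0.0215 to 0.0485 from edgeR and DESeq2). At 1 µM it was 0.83 ± 0.64 (adjusted p = 0.27), and a fit of the untreated and 1 µM libraries alone called it (0.89, adjusted p = 0.0044). Without replicate 3 of 0.25 and 0.5 µM it was called as well (0.87, adjusted p = 0.00635). From 0.15 to 1 µM the change was 1.30 ± 0.65 (adjusted p = 0.124), and it was called without replicate 3 of 0.5 µM (1.30, adjusted p = 0.0143), without both replicates 3 (1.34, adjusted p = 0.000245) and with the compared groups alone (1.31, adjusted p = 0.000445). TLCD2, 1070 bases from MIR22HG, was higher at all 4 doses, from an untreated 1.31 ± 0.523 CPM to 10.6 ± 2.34 at 0.15 µM and 9.87 ± 2.01 at 1 µM (adjusted p = 1.21e-07).

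**Figure D3:**
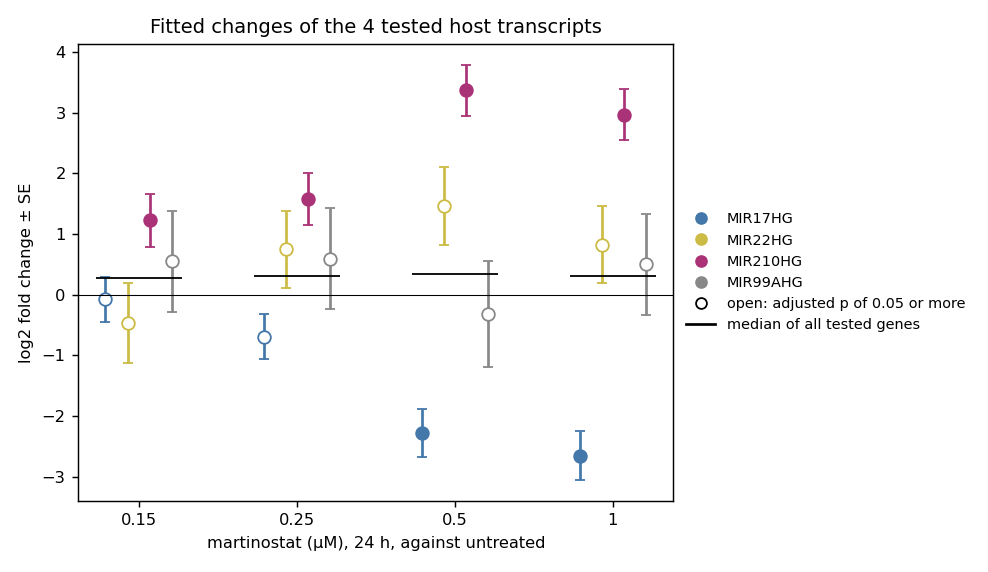
Log2 fold changes ± SE of the 4 tested host transcripts against untreated cells at each martinostat dose in µM, with filled points for an adjusted p under 0.05 and black bars at the median of all 23711 tested genes. MIR210HG lay at 1.23 to 3.37 and was called at all doses, MIR17HG reached −2.28 and −2.65 at 0.5 and 1 µM, and MIR22HG and MIR99AHG were not called.

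The remaining 3 hosts were near the limit of detection. MIR99AHG (ENSG00000215386, chromosome 21, 15928296 to 16646364, plus strand), host of let-7c, miR-99a and a miR-125b hairpin, had 0.0716 to 1.07 CPM over the 15 libraries and was not called in any comparison. Its log2 differences from untreated cells lay between −0.32 and 0.60 with SEs of 0.83 to 0.87. MIR155HG (ENSG00000234883, chromosome 21, 25561810 to 25575168, plus strand), host of miR-155, had counts in 8 of 15 libraries and 9 at most in 1 library. Of the 5 lymphocyte markers listed beside it, 4 were tested and 2 were higher at 1 µM, where 38.8% of all tested genes were higher. With scaling by library totals 4 were higher, where 15585 of 23711 tested genes were called in either direction. Of the 5 markers 2 had 0 counts in the untreated libraries, and any of these that was tested could not have come out lower. The 5 markers summed to 2.82 to 5.24 CPM in untreated libraries and 9.44 to 10.8 CPM at 1 µM. MIR100HG (ENSG00000255248, chromosome 11, 122028325 to 122556721, minus strand), host of miR-100, let-7a-2 and miR-125b-1, had counts in 12 of 15 libraries and 17 at most. Of MIR100HG the untreated group held 2 counts and the 0.5 µM group 21. All 3 libraries at 0.5 µM (0.309, 0.418 and 0.109 CPM) lay above the untreated ones (0, 0.0772 and 0 CPM). The 0.15, 0.25 and 1 µM groups overlapped with the untreated group, and the mean was 0.292 CPM at 0.25 µM and 0.279 CPM at 0.5 µM. From counts this low no dose course of MIR100HG can be read. Neither MIR155HG nor MIR100HG was tested, and no difference of MIR99AHG was detectable at this depth.

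To compare levels between genes, CPM were divided by exon length in kilobases. In untreated cells the order was MIR17HG (7.49 ± 1.25 CPM per kb, SD), MIR223HG (1.75 ± 0.628), MIR22HG (1.01 ± 0.287) and MIR210HG (0.204 ± 0.0571), with the other 4 at 0.0231 or lower. At 1 µM MIR7-3HG led with 137 ± 21.5 CPM per kb, ahead of MIR22HG (1.79 ± 0.428), MIR210HG (1.61 ± 0.707) and MIR17HG (1.19 ± 0.346), and the libraries of these last 3 overlapped on this scale. MIR223HG, the second most abundant host in untreated cells, stood at 0.0158 CPM per kb at 1 µM. The order of the hosts was thus exchanged between untreated cells and 1 µM, with MIR7-3HG moving from the last place to the first.

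The promoters, from 250 bases before to 50 bases after the start given by RefSeq, differed in base composition. MIR210HG, MIR17HG and MIR22HG held 44, 42 and 32 CpG dinucleotides in 300 bases, against a median of 14 over 35116 promoters, while MIR155HG held 20 and MIR7-3HG 9. The promoters of MIR7-3HG (chr19:4768855-4769154, plus strand) and MIR17HG (chr13:91347437-91347736, plus strand) are shown because these hosts moved in opposite directions. Capitals mark the motifs TATAAA and CCAAT in the first and GGGCGG and CCAAT in the second, searched on both strands.
MIR7-3HG promoter: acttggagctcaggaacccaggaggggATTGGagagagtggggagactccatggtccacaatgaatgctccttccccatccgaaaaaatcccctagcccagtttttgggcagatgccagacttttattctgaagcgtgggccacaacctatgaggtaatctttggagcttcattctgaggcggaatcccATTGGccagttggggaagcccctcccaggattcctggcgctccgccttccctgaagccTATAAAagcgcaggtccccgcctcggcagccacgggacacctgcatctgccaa
MIR17HG promoter: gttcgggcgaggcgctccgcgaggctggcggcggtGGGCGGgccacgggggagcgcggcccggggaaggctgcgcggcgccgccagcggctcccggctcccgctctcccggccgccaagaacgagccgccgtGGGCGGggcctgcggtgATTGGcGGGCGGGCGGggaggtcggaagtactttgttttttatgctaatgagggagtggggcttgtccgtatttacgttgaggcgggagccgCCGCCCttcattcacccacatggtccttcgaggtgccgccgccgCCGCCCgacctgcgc

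MIR7-3HG held TATAAA starting 3 bases before the RefSeq start, which itself lies 74 bases downstream of the start in GENCODE, and no GGGCGG. Of all promoters in the table, 11.5% held TATAAA, 45.0% GGGCGG and 34.6% CCAAT. MIR17HG held GGGCGG at 6 positions, a pair of which overlap, MIR210HG at 4 and MIR22HG at 3, and none of these had TATAAA. Promoters rich in CpG and GGGCGG were thus found in the host that fell, in the host that rose and in the host that was not called.

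Genes with the most similar profile were sought by Pearson correlation of log2(CPM + 0.5) over the 15 libraries, which share their dose groups, as a description. For MIR7-3HG they were ARRDC4 (r = 0.996), an alpha-arrestin, and SLC2A3 (r = 0.994), a glucose transporter, which unlike it were present in untreated cells at 39.1 and 121 CPM and reached 690.5 and 581 CPM at 1 µM. For MIR223HG they were RIPOR3 and COL6A5 (r = 0.990 for both), at 69.1 and 69.0 CPM at 0.15 µM and 11.0 and 6.90 CPM at 1 µM. For MIR17HG they were C11orf21 (r = 0.986) and LINC01311 (r = 0.976), for MIR22HG DMTF1 (r = 0.937) and ZNF558 (r = 0.927) and for MIR210HG ENSG00000265399 (r = 0.962) and RIIAD1 (r = 0.961).

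Among the genes that process microRNAs more were lower than higher at each dose, except that scaling by library totals gave equal numbers at 0.25 µM. Of 26 listed biogenesis and effector genes, all tested, the numbers higher and lower were 2 and 13 for 0.15 µM, 4 and 15 for 0.25 µM, 5 and 17 for 0.5 µM, and 4 and 17 for 1 µM, where 38.8% of all tested genes were higher and 27.5% lower. For 0.15, 0.25 and 0.5 µM 31.9%, 37.4% and 39.4% of all tested genes were higher and 19.4%, 24.8% and 27.6% lower. The median log2 fold change of the list at 1 µM was −0.71, against 0.32 over all tested genes. Scaled by library totals, which moved the median of all genes at 1 µM to 0.67, the list had 7 genes higher and 12 lower with a median of −0.35, and the numbers were 6 and 8 for 0.15 µM, 8 and 8 for 0.25 µM and 7 and 10 for 0.5 µM. On that scale 11700, 14764, 15810 and 15585 of all 23711 tested genes were called in either direction, in order of dose.

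Among genes of the nuclear step and export, DROSHA went from an untreated 165 ± 2.85 CPM to 54.8 ± 7.44 at 1 µM (log2 fold change −1.59 ± 0.14 (SE), adjusted p = 1.43e-08), and XPO5 from 464 ± 27.0 to 145 ± 10.7 CPM (−1.68 ± 0.14, adjusted p = 6.1e-09). RAN, the GTPase used in export, fell at each dose, from 1193 ± 45.6 to 191 ± 8.50 CPM at 1 µM. In the cytoplasmic steps DICER1 went from 71.0 ± 6.86 to 24.3 ± 2.87 CPM (−1.55 ± 0.23, adjusted p = 1.18e-05) and AGO2, the slicing Argonaute, from 333 ± 4.85 to 63.3 ± 5.24 CPM (−2.39 ± 0.19, adjusted p = 1.82e-09). AGO3, at 61.4 CPM untreated and 66.9 CPM at 1 µM, was not called at 1 µM.

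LIN28B, which blocks let-7 maturation, had the largest decrease of the list at 1 µM, from an untreated 269 ± 27.4 CPM to 74.9 ± 11.1 at 0.15 µM and 14.4 ± 2.17 at 1 µM (log2 fold change −4.22 ± 0.19, adjusted p = 1.11e-12). Its relative LIN28A was higher at 0.15 µM (1.28, adjusted p = 1.44e-05) and was not called at 1 µM. The genes higher at 1 µM were the silencing scaffolds TNRC6B (1.36 ± 0.15, adjusted p = 1.71e-07) and TNRC6C (0.95 ± 0.17, adjusted p = 8.18e-05), the uridylyltransferase TUT7 (0.38 ± 0.16, adjusted p = 0.0399) and ZSWIM8 (1.69 ± 0.13, adjusted p = 1.04e-09), a ubiquitin ligase adaptor of target-directed microRNA decay. OIP5-AS1, a long noncoding RNA with a site for miR-7, went from 123 ± 9.31 to 50.9 ± 3.27 CPM at 1 µM (−1.27 ± 0.14, adjusted p = 1.74e-07).

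**Figure D4:**
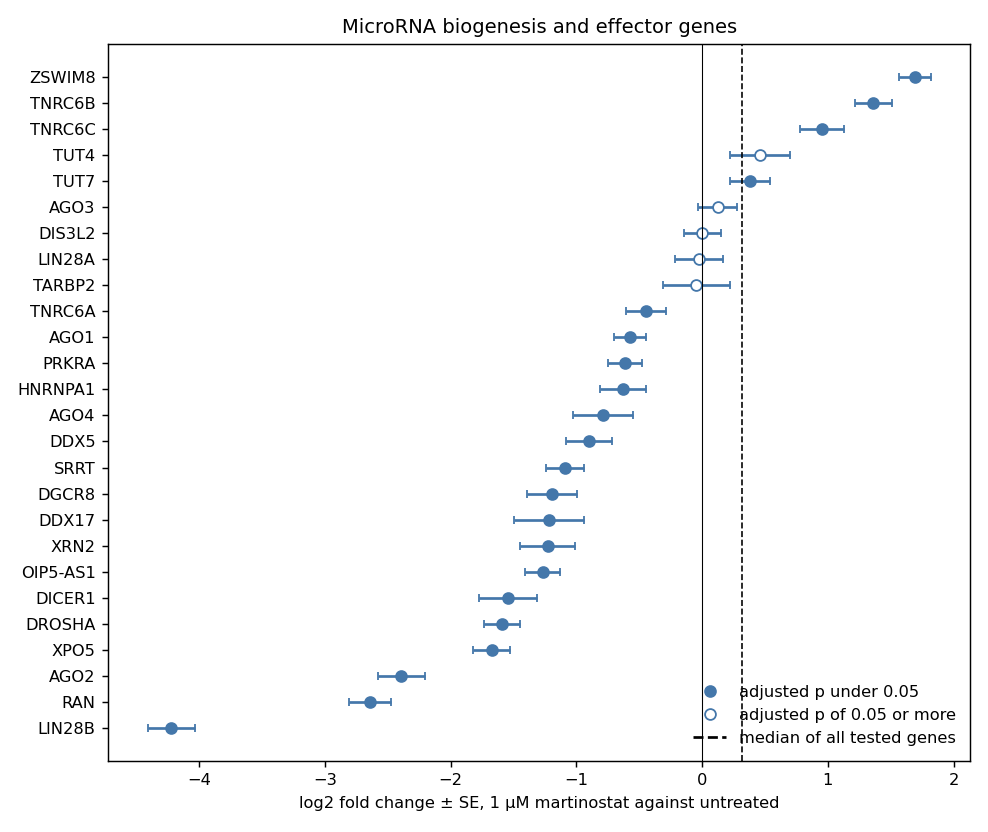
Log2 fold changes ± SE of the 26 microRNA biogenesis and effector genes at 1 µM martinostat against untreated cells, with filled points for an adjusted p under 0.05 and a dashed line at the median of all tested genes (0.32). From LIN28B at −4.22 to ZSWIM8 at 1.69, 17 genes were lower and 4 higher.

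Genes listed as known targets of the hosted microRNAs moved in both directions. Of 19 listed genes 18 were tested, and the numbers higher and lower were 5 and 5 for 0.15 µM, 5 and 8 for 0.25 µM, then 7 and 10 for 0.5 µM and again for 1 µM. The shares of all tested genes called higher and called lower were 31.9% and 19.4% for 0.15 µM, 37.4% and 24.8% for 0.25 µM, 39.4% and 27.6% for 0.5 µM, then 38.8% and 27.5% for 1 µM. With library totals as the scale, 10 listed targets rose and 3 fell for 0.15 µM, 10 and 2 for 0.25 µM, 8 and 6 for 0.5 µM, then 8 and 7 for 1 µM. On that scale 11700, 14764, 15810 and 15585 of all 23711 tested genes were called in either direction, in order of dose. The targets then had median log2 fold changes of 0.46, 0.60, −0.15 and −0.17, against 0.64, 0.85, 0.72 and 0.67 over all tested genes. Among targets of the miR-17 family, whose host fell, CDKN1A, the cell cycle inhibitor p21, rose to 356 ± 51.2 CPM at 1 µM (log2 fold change 6.51 ± 0.25, adjusted p = 1.88e-13), while E2F1 fell from 60.1 to 25.1 CPM and BCL2L11 from 80.3 to 56.8 CPM. The miR-223 targets NFIA and MEF2C were lower at 1 µM (log2 fold changes −1.56 and −1.05), where the host of miR-223 was almost absent. Of the miR-7 targets IRS2 was higher at 1 µM (0.67, adjusted p = 0.00931) and EGFR, at 0.274 CPM or lower, was not tested. Of the miR-210 targets ISCU was lower (−0.54, adjusted p = 0.0017) and EFNA3 higher (1.70, adjusted p = 4.08e-05) at 1 µM, and both miR-22 targets, MYCBP and MAX, were lower (−1.02 and −0.71). Both groups of targets, of hosts that rose and of hosts that fell, thus held genes that went up and genes that went down.

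Among the 76 other MIR…HG symbols 47 were tested, and the numbers higher and lower were 13 and 2 for 0.15 µM, 20 and 6 for 0.25 µM, 16 and 8 for 0.5 µM, and 16 and 7 for 1 µM. In order of dose, 31.9%, 37.4%, 39.4% and 38.8% of all tested genes were higher. Those lower made up 19.4%, 24.8%, 27.6% and 27.5% of all tested genes. The median log2 fold change of these hosts at 1 µM was 0.37, against 0.32 over all tested genes. Scaling by library totals gave 19 higher and 7 lower, with a median of 0.73 against 0.67 over all tested genes. On that scale 15585 of 23711 tested genes were called in either direction. Of these hosts 26 had a mean of at least 1 CPM. At 1 µM 6 of the 26 were higher and 5 lower, with a median of −0.013. With library totals 9 of the 26 were higher and 5 lower, with a median of 0.34. MIR9-3HG, host of a hairpin of the neural miR-9, had a mean of 0.0273 CPM in untreated cells, from which it could hardly have been called lower. Its means were 1.23, 3.25, 8.50 and 8.84 CPM in order of dose. MIR29B2CHG rose from 0.660 ± 0.0785 to 7.48 ± 0.535 CPM at 0.15 µM and was at 6.62 ± 0.0552 CPM at 1 µM. MIR142HG, host of the blood-cell microRNA miR-142, was at 63.0 ± 2.34 CPM in untreated cells and 64.8 ± 12.0 at 0.15 µM, and fell to 5.32 ± 1.45 CPM at 1 µM (log2 fold change −3.56 ± 0.22, adjusted p = 5.91e-11). MIR3681HG was higher at 0.15 and 0.25 µM, at 28.1 and 30.7 CPM against 10.5 CPM untreated, and stood at 9.13 CPM at 1 µM.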

How the data were processed

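Poly(A) RNA of K562 cells was sequenced in 15 libraries from a directional kit. According to the methods and the submitters' processing notes, the authors trimmed reads (Trim Galore 0.6.10, Trimmomatic), aligned them to hg38 with HISAT2 2.2.1, sorted them with SAMtools 1.21 and counted fragments per GENCODE gene with featureCounts 1.5.3. They deposited raw counts, not normalised, in 1 table, and deposited FPKM per library, whose length is the gene span with introns. The FPKM were used only to read back that length, and counting strand is not given in the sources used here.

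The count table was tested in edgeR 4.0.16 under R 4.3.3 (filterByExpr, TMM, 1 robust quasi-likelihood fit of all 15 libraries with group as the term, 10 residual degrees of freedom), with a call at a Benjamini-Hochberg adjusted p under 0.05 over 23711 genes. The scripts were tested on simulated data. SE is the log2 fold change over the root of F. The members and gene lists were chosen with earlier results of these data known. Named genes were all members, the listed genes, hairpins in members, the nearest tested gene on each side, other hosts with a mean of at least 1 CPM and the 2 most similar profiles per member. HNRNPK was named after its values were seen. Some listed target genes are counted with their list but their own values are not reported here. Symbols were found for 99.8% of IDs, and positions and exons come from GENCODE release 44, in which the versions of some IDs differ. For levels per length, exons were limited to the length behind the FPKM. DESeq2 1.42.0 and other scalings, filters and sample sets served as alternatives. Counting error limits low counts, and intervals over PCR copies would cover counting error only. Same-numbered libraries of 0.25 and 0.5 µM deviated together from their group means (r = 0.406, 0.421 and 0.706). The highest r was between the libraries that stood apart. Some differently numbered libraries of these doses also deviated together (r = 0.351 and 0.166), and the rest did not (r = −0.570 to −0.413). An outlying library moves the group mean and so shifts the deviations of the others alike. These r therefore cannot show whether replicate numbers paired these groups. The labels give no reason for a pairing, and over all groups 6 of 30 same-numbered pairs were over 0.1.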

Additional observations from a re-analysis of the deposited data

How the results depend on the processing

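Depth limits MIR155HG, MIR100HG and MIR99AHG, and replicate 3 at 0.25 and 0.5 µM limits MIR223HG and MIR17HG at those doses and MIR22HG there and at 1 µM. Of 757 host values under alternatives, 709 kept direction and side of the threshold, 18 gained a call, 3 lost one and 27 changed sign, of which 0 were called before or after. The cause was not tested.

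With at least 10 counts in every library, 14096 genes were tested and fewer called (7517, 8851, 9784 and 9690 against untreated, by rising dose). A fit of the compared groups alone called 1866 genes from 0.15 to 0.25 µM against 2911. Leaving out 1 library, hosts called were 0 to 1 at 0.15 µM (0 without untreated replicate 1 or 2 or 0.15 µM replicate 3), 1 to 2 at 0.25 µM (2 without its replicate 3) and 0 to 1 from 0.15 to 0.25 µM (1 without replicate 3 of 0.25 or of 0.5 µM), where genes called were 1704 (without 0.15 µM replicate 3) to 4022 (without 0.5 µM replicate 3). Without both replicates 3, an alternative chosen after seeing the data, 2 hosts were called at 0.25 µM, 1 from 0.15 to 0.25 µM, 3 at 1 µM and 3 from 0.15 to 1 µM.

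MIR17HG at 0.15 µM turned to 0.29 (library totals), 0.19 (TMM from genes of at least 10 CPM) and 0.10 (10 counts in every library), and ranged from −0.20 to 0.011 with 1 library left out. MIR99AHG turned at 0.5 µM to 0.14 and 0.13 (library totals, TMM from genes of at least 10 CPM) and from 0.15 to 1 µM to 0.064 (RLE size factors), 0.077 (TMM from genes of at least 10 CPM), 0.063 (DESeq2) and 0.01 (without both replicates 3), and from 0.15 to 0.25 µM to −0.10 without both. With 1 library left out it ranged from −1.38 to 0.19 at 0.5 µM, −0.81 to 1.01 at 1 µM, −0.47 to 0.54 from 0.15 to 0.25 µM, −0.48 to 1.89 from 0.5 to 1 µM (1.91 without both replicates 3) and −1.36 to 0.35 from 0.15 to 1 µM. MIR22HG was −0.03 at 0.25 µM and 0.68 from 0.5 to 1 µM without both replicates 3, and with 1 library left out ranged from −0.036 to 1.06 at 0.25 µM, −0.59 to 1.56 from 0.25 to 0.5 µM and −1.02 to 0.67 from 0.5 to 1 µM.

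With the replicate number as a block 12136 genes were called at 0.15 µM, 15808 at 1 µM and 7161 from 0.25 to 0.5 µM, the comparison whose same-numbered libraries deviated together, and no host changed its call.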
